A study of Mus musculus with 4 samples.

Results

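YAP and TAZ are transcriptional coactivators that enter the nucleus when the Hippo kinases are quiet and bind DNA through the TEAD factors. The genes they switch on include secreted matrix proteins, regulators of the cytoskeleton and several inhibitors of YAP itself, which form a feedback loop, and in mammary epithelium the pathway responds to cell density, cell shape and the stiffness of the matrix. The genes described here are 10 such targets or partners: Ankrd1, Cyr61, Ctgf, Amotl2, Ajuba, Lats2, Crim1, Ptpn14, Tead1 and Rbms3. They were taken by symbol from the 33677 gene symbols of the count table, all 10 were found, and all 10 were among the 13299 genes that passed the filter on low counts. Rbms3 passed that filter through its counts in Jagged1 cells.

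The counts come from PyMT-A, a cell line from a mammary tumour of the FVB/NJ strain, whose name refers to the polyoma virus middle T oncogene. Jagged1 cells (2 libraries) were infected with the PMSCV-Jagged1 virus, which delivers a Notch ligand, and vector cells (2 libraries) with the PMSCV-puro virus. Both lines were cultured in DMEM with serum, and poly(A) RNA was sequenced. The comparison asks which of these genes differ between the cultured tumour cells with and without added Jagged1. The labels name neither clones nor separate cultures, and p-values then measure only the spread between these libraries, which may be technical.

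Total counts were 20835208 and 13549258 in the Jagged1 libraries and 15609720 and 12136227 in the vector libraries. The transduced gene Jag1 had 275 and 324 CPM in Jagged1 cells, against 10.5 and 9.12 CPM in vector cells. CPM here is the count relative to library size after scaling by TMM factors. The first principal component of log2 CPM, with 51.6% of the variance, set Jagged1 library 1 and vector library 1 (-25.9 and -31.1) apart from Jagged1 library 2 and vector library 2 (39.98 and 17.1), so the replicate numbers, not the lines, made the largest split. Of 8 epithelial markers 7 were tested and their summed level was 4181 and 3861 CPM in Jagged1 cells, against 4294 and 4002 CPM in vector cells, while Krt19 had 1 count in all. Of 8 fibroblast markers, summed levels were 10.7 and 69.9 CPM in Jagged1 cells, against 4.63 and 7.17 CPM in vector cells. Col1a2 and Col3a1 had 280 and 83 counts in Jagged1 library 2 and 0 in the other libraries, and Lum was at 0 in all 4. The 7 leukocyte markers summed to 1.69 and 11.0 CPM in Jagged1 cells, against 1.72 and 10.3 CPM in vector cells, and Cd3e was at 0. The 5 endothelial markers summed to 0.581 and 6.35 CPM in Jagged1 cells, against 0.661 and 2.85 CPM in vector cells, and Emcn was at 0. The 6 basal markers summed to 750 and 380 CPM in Jagged1 cells, against 460 and 234 CPM in vector cells, nearly all of it Krt14.

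TEAD factors recognise a short DNA element whose core reads GGAATG, or CATTCC on the other strand. RefSeq start sites (GRCm38.p6) gave promoter windows for 8 of the 10 genes, 10 windows in all since Lats2 and Rbms3 have a pair each; Ctgf and Tead1 had none to match. The 250 bases upstream of the start held the TEAD core, on either strand, in 6 of the 10 windows, where 12.6% of all 32851 mouse promoter windows of the same length held it. These 6 belong to 6 of the 8 genes. The windows below belong to the 4 genes with an unadjusted p under 0.05 and to Cyr61, a standard YAP readout, and are read along the gene's strand 5′ to 3′, with the TEAD core in capitals.
Ankrd1 (chr19:36119845-36120094, minus strand): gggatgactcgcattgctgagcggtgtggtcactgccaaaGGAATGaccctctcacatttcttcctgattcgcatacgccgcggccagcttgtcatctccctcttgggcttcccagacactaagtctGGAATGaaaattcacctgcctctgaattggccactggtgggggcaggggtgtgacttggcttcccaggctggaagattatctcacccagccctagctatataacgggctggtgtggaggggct
Amotl2 (chr9:102717554-102717803, plus strand): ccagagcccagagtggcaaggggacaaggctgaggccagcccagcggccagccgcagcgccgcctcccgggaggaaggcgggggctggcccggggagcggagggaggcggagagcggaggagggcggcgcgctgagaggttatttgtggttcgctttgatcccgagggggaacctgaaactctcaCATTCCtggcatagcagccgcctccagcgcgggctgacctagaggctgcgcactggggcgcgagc
Ajuba (chr14:54577662-54577911, minus strand): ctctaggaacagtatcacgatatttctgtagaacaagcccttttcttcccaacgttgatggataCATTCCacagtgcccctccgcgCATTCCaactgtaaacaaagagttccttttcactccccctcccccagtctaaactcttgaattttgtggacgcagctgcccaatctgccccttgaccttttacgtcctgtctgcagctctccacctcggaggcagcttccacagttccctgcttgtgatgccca
Cyr61 (chr3:145649986-145650235, minus strand): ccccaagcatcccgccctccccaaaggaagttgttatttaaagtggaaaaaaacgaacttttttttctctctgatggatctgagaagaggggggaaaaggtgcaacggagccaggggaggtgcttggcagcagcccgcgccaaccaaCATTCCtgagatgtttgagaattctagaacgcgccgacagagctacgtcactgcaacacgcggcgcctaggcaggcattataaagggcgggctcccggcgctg
Rbms3 (chr9:117629914-117630163, minus strand): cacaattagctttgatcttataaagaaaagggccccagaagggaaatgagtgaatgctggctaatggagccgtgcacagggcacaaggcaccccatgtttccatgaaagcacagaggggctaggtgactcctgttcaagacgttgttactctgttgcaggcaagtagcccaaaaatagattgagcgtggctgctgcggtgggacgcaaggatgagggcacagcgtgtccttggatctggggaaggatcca
Rbms3 (chr9:117252484-117252733, minus strand): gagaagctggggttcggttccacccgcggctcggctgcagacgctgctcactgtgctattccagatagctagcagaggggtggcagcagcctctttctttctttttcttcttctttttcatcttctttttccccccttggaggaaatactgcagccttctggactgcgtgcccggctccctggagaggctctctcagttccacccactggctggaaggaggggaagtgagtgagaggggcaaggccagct
RefSeq starts need not match the gene spans given below, and the windows of Ankrd1 and Amotl2, among others, lie inside those spans. Counted from the RefSeq start, the core begins 210 and 123 bases upstream in Ankrd1, 186 and 164 in Ajuba, 103 in Cyr61 and 65 in Amotl2. It also begins 79 bases upstream in Crim1 and 146 in Ptpn14. These letters are absent from both Rbms3 windows and from both Lats2 windows. The AP-1 site TGANTCA (6.75% of all windows) and the CArG box of serum response factor (1.47%) were searched on both strands, and none of the 10 windows held either, so no TEAD core overlapped another motif searched. A match is a description of the letters and was not tied to binding in these cells.

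None of the 10 genes passed the adjusted threshold of 0.05 in edgeR's quasi-likelihood test over all 13299 genes, where 0.00752% of genes did (1 gene, Jag1). Of the 9 genes that either line alone would have carried past the low-count filter, 3 had an unadjusted p under 0.05, where 3.96% of all tested genes did. These were Ankrd1, Amotl2 and Ajuba, each lower in Jagged1 cells. Rbms3, which Jagged1 cells alone carried past the filter, also had an unadjusted p under 0.05, with higher levels there, and is not part of that count. DESeq2, which called 0.353% of all genes, called Ankrd1 and Rbms3, and edgeR without the low-count filter, which called 0.686%, called the same pair. Among the same 9 genes the pair of Jagged1 values was below the pair of vector values in 4 (15.1% of all tested genes) and above it in 0 (13.9%). Their median log2 fold change was -0.22, the value of Cyr61, which overlapped between the lines, beside -0.0025 for all tested genes. The 10 genes were chosen with earlier results of these data known, so these shares are not an independent test of them.

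**Figure D1:**
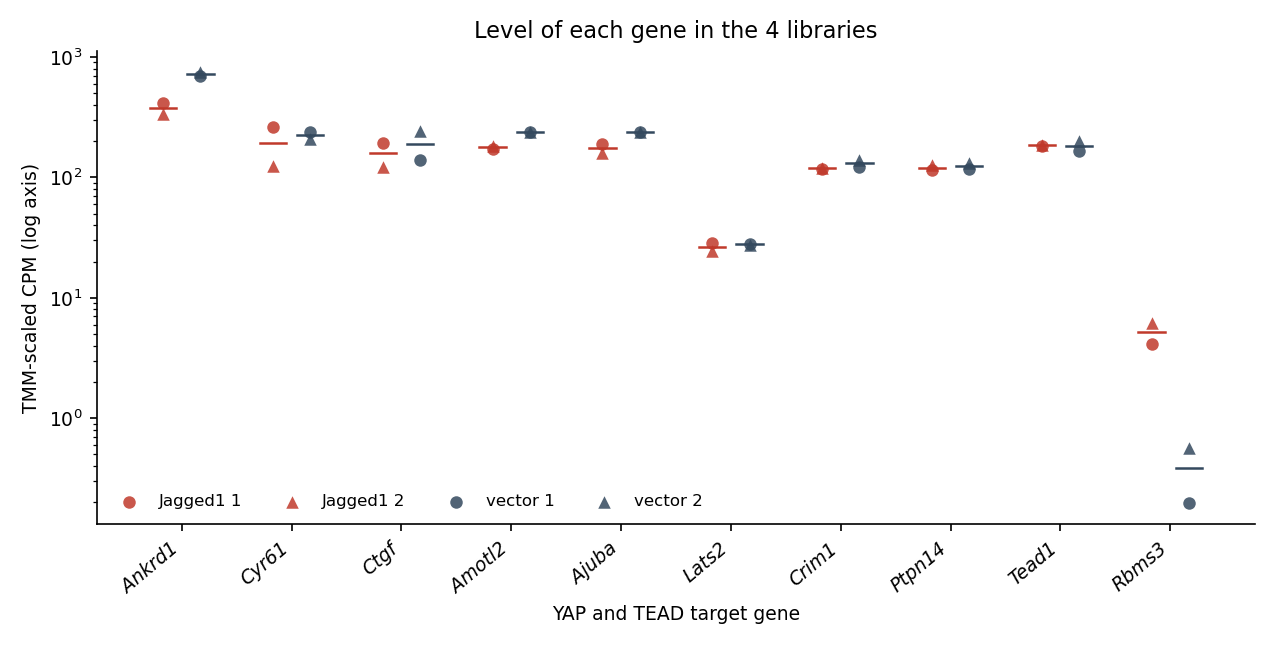
TMM-scaled CPM on a log axis for each of the 10 genes, with 1 point per library (circle, library 1; triangle, library 2), a bar at the mean, and Jagged1 left of vector. The lines are apart without overlap for Ankrd1, Amotl2, Ajuba, Crim1 and Rbms3, and the points of Cyr61 and Ctgf are spread most within a line among the genes above 20 CPM.

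Ankrd1 encodes an ankyrin repeat protein of the muscle sarcomere and the nucleus that is widely used as a readout of YAP activity. It lies on chromosome 19 (36111961 to 36120099, minus strand, GRCm38; protein coding). Its level was 412 and 338 CPM in Jagged1 cells, against 691 and 746 CPM in vector cells. Both Jagged1 libraries were well below both vector libraries, and the gap between the lines was several times the gap within either. The means were 375 ± 52.7 and 718 ± 39.2 CPM (SD, n = 2 each), a log2 fold change of -0.94 ± 0.17 (SE), which is 1.91-fold lower in Jagged1 cells. By unadjusted p (0.00228) it ranked 33 of 13299 genes, with an edgeR adjusted p of 0.882. DESeq2 gave an adjusted p of 0.00348 and unfiltered edgeR 0.0112, within a range of 0.00348 to 1.00 over 9 alternatives. With 1 library left out the log2 fold change stayed between -1.09 and -0.80.

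Cyr61 and Ctgf, now named Ccn1 and Ccn2, encode secreted matricellular proteins of the CCN family that bind integrins and are the most used YAP targets beside Ankrd1. Cyr61 (chromosome 3, 145646976 to 145649981, minus strand) had 263 and 124 CPM in Jagged1 cells, against 240 and 210 CPM in vector cells. Jagged1 library 1 held the highest value of the 4 and Jagged1 library 2 the lowest, so the lines overlapped. The log2 fold change was -0.22 ± 0.36 (SE; edgeR adjusted p = 1.00), -0.87 without Jagged1 library 1 and 0.23 without Jagged1 library 2.

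Ctgf (chromosome 10, 24595442 to 24598683, plus strand) had 194 and 123 CPM in Jagged1 cells, against 138 and 242 CPM in vector cells. The vector libraries themselves held the highest and a low value, and the lines overlapped. The log2 fold change was -0.26 ± 0.34 (SE; edgeR adjusted p = 1.00), and it was 0.03 without Jagged1 library 2 and 0.19 without vector library 2. Between the libraries of 1 line, library 2 minus library 1, Cyr61 differed by -1.09 on the log2 scale in Jagged1 cells and by -0.19 in vector cells, and Ctgf by -0.65 in Jagged1 cells and 0.81 in vector cells. Over all tested genes the median absolute difference of this kind was 0.279 in Jagged1 cells and 0.233 in vector cells. The low values of both genes stood in Jagged1 library 2, the library with the highest summed fibroblast markers (69.9 CPM), and the part of that difference in these values was not tested. Of the exon bases of Ctgf in the GENCODE M21 annotation, 665 of 2861 are shared with Gm15270 on the opposite strand. The count table has no row under that name. With the strand setting of the counting not given in the sources used here, reads there could not be told apart.

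**Figure D2:**
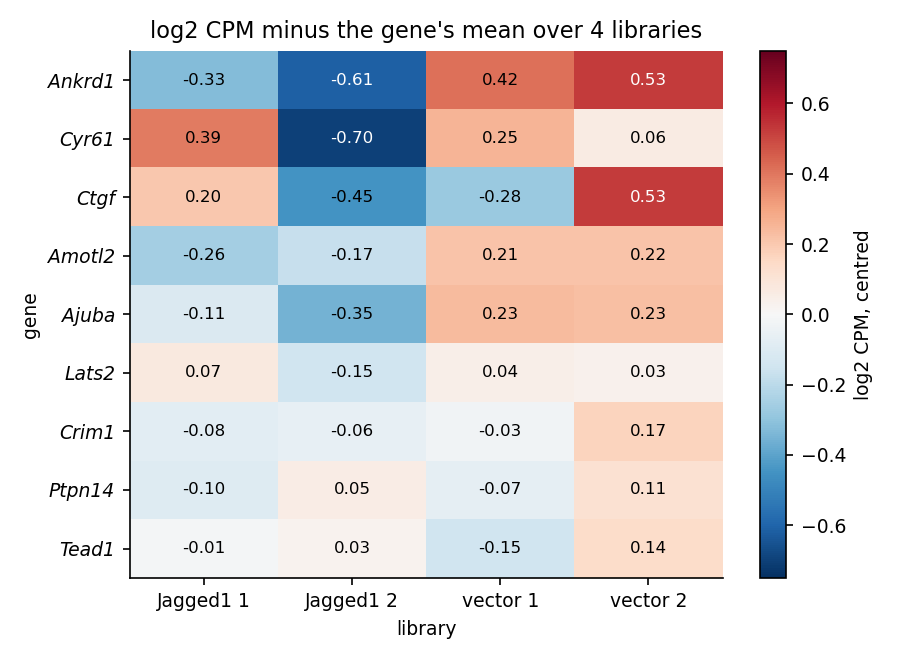
Log2 CPM of 9 genes in each library minus the gene's mean over the 4 libraries, with Jagged1 libraries left of vector libraries (red, above the mean; blue, below). Ankrd1, Amotl2 and Ajuba are below their mean in both Jagged1 columns, whereas Cyr61 is at 0.39 in Jagged1 library 1 and -0.70 in library 2; Rbms3 is left out because its wider range would hide the others.

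Several of the genes encode proteins that act back on YAP. Amotl2, of the angiomotin family, holds YAP at cell junctions and promotes its phosphorylation. It (chromosome 9, 102716672 to 102733418, plus strand) had 173 and 183 CPM in Jagged1 cells, against 239.97 and 240.1 CPM in vector cells. Both lines were tight, and the lines were apart. The log2 fold change was -0.43 ± 0.14 (SE; unadjusted p = 0.0267, edgeR adjusted p = 1.00), or 1.35-fold lower, and it stayed between -0.47 and -0.39 with 1 library left out.

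Ajuba encodes a LIM domain protein of cell junctions that binds the LATS kinases and restrains them. It (chromosome 14, 54567472 to 54577558, minus strand) had 189 and 160 CPM in Jagged1 cells, against 239.7 and 238 CPM in vector cells. Jagged1 library 2 was the lowest, and both Jagged1 libraries were below vector. The log2 fold change was -0.46 ± 0.16 (SE; unadjusted p = 0.0317, edgeR adjusted p = 1.00), or 1.37-fold lower, between -0.58 and -0.34 with 1 library left out. Amotl2, an inhibitor of YAP, and Ajuba, an inhibitor of the LATS kinases, were thus both lower in Jagged1 cells.

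Lats2, a Hippo kinase that phosphorylates YAP and keeps it out of the nucleus, lies on the same chromosome as Ajuba (14, 57689662 to 57758388, minus strand). It had 28.5 and 24.4 CPM in Jagged1 cells, against 27.9 and 27.6 CPM in vector cells, so the lines overlapped (log2 fold change -0.07 ± 0.17; edgeR adjusted p = 1.00), and the value turned to 0.038 without Jagged1 library 2. The other YAP restraint, Ptpn14, is a tyrosine phosphatase that binds YAP. Its level (chromosome 1, 189728268 to 189876695, plus strand) was 114 and 127 CPM in Jagged1 cells, against 116 and 132 CPM in vector cells, again with overlap (-0.04 ± 0.16; edgeR adjusted p = 1.00; 0.031 without Jagged1 library 1 and 0.043 without vector library 2). In the GENCODE M21 annotation, Lats2 shares 2955 of its 6971 exon bases with Gm49361 on the same strand, and Ptpn14 shares 177 of 13413 with Gm26574 on the other strand. The count table has no row under either name, and the annotation it was made with is not given, so the division of reads there is uncertain.

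Tead1 encodes a TEAD factor, a DNA-binding partner of YAP. It (chromosome 7, 112679318 to 112906807, plus strand) had 182 and 187 CPM in Jagged1 cells, against 166 and 202 CPM in vector cells. The Jagged1 values lay inside the range of the vector values, with a log2 fold change of 0.0048 ± 0.17 (SE; edgeR adjusted p = 1.00). It was -0.013 without Jagged1 library 2 and -0.11 without vector library 1. Crim1, a transmembrane protein with cysteine-rich repeats that binds bone morphogenetic proteins, lies on chromosome 17 (78200248 to 78376592, plus strand). It had 118 and 119.7 CPM in Jagged1 cells, against 122 and 139.98 CPM in vector cells. The lines did not overlap, but vector library 1 was nearer to the Jagged1 libraries than to vector library 2 (-0.14 ± 0.15, edgeR adjusted p = 1.00), and without vector library 2 the value was -0.049. Crim1 shares 123 of 5995 exon bases with Fez2 on the opposite strand.

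Rbms3, which encodes an RNA-binding protein that recognises single-stranded nucleic acid, differed most in fold and ran the other way. It is a gene of over a megabase (chromosome 9, 116572746 to 117629913, minus strand). It was read 86 and 86 times in Jagged1 cells, against 3 and 7 times in vector cells, which is 4.16 and 6.21 CPM in Jagged1 cells and 0.198 and 0.570 CPM in vector cells. Both Jagged1 libraries stood far above both vector libraries, and vector library 1 was at the detection floor of 3 counts. On summed counts (172 in Jagged1, 10 in vector) the ratio was 13.7, with an exact 95% interval of 7.25 to 29.0 that covers counting error only. The fitted log2 fold change was 3.76 ± 0.61 (SE), a value that rests on only 10 counts in vector cells. Its unadjusted p (0.00118) ranked 22 of 13299, with an edgeR adjusted p of 0.712.

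The adjusted p of Rbms3 was 0.00138 with DESeq2, 8.57e-07 in edgeR without the low-count filter and 0.000759 without Jagged1 library 1, over a range of 8.57e-07 to 1.00 across 9 alternatives. With 1 Jagged1 library left, that library is assumed to vary like the vector pair. The log2 fold change lay between 3.18 and 4.64 with 1 library left out, so the direction held in each. The summed fibroblast markers were also higher in Jagged1 cells (10.7 and 69.9 CPM, against 4.63 and 7.17 CPM in vector cells), and their part in the Rbms3 values was not tested. Of these 8 markers, Pdgfra had 8.03 and 6.72 CPM in Jagged1 cells, against 3.37 and 4.97 CPM in vector cells. Pdgfrb had 9 and 103 counts and Dcn 6 and 23 counts in Jagged1 libraries 1 and 2, and both were at 0 in the vector libraries. Col1a1 overlapped between the lines (1.74 and 27.2 CPM in Jagged1 cells, against 1.06 and 1.95 CPM in vector cells), as did Fap (0.194 and 0.722 CPM, against 0.198 and 0.244 CPM). Col1a2 and Col3a1 were at 0 in Jagged1 library 1. The nearest tested protein-coding genes on each side, looked up after the value of Rbms3 was known, were Tgfbr2, the type II TGF-beta receptor, at -0.56 ± 0.18, and Azi2, at -0.06 ± 0.15 (log2 fold change ± SE; edgeR adjusted p = 1.00 for both). Tgfbr2 had 89.96 and 94.2 CPM in Jagged1 cells, against 153 and 120 CPM in vector cells, the opposite direction from Rbms3.

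**Figure D3:**
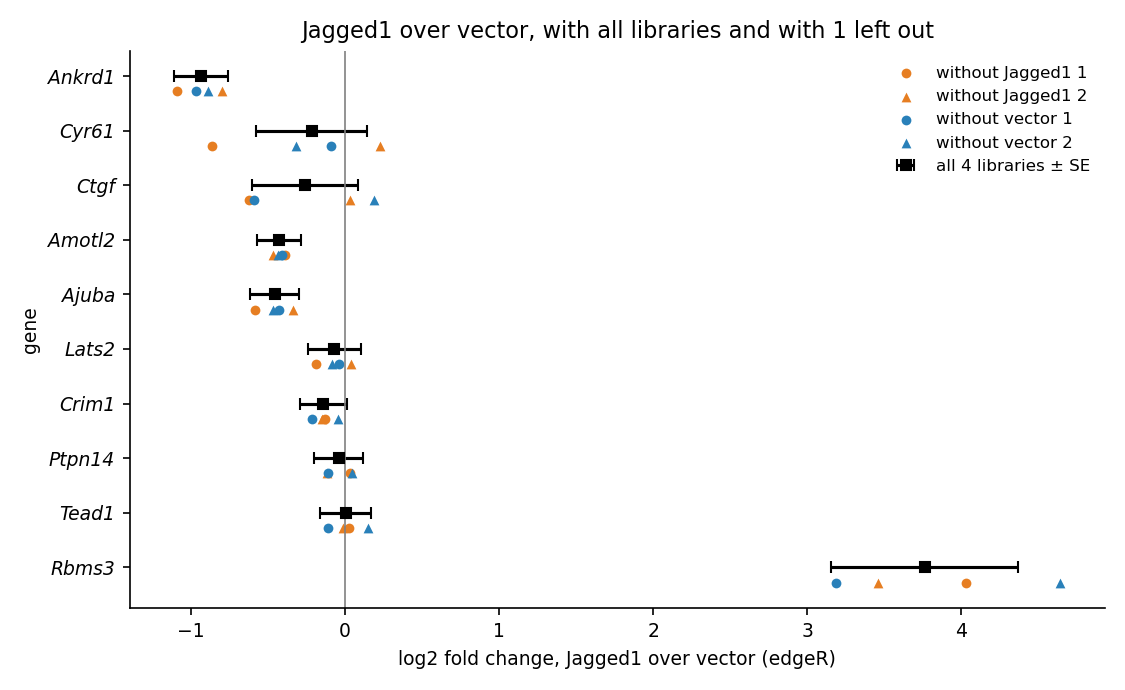
Log2 fold change of Jagged1 over vector from edgeR for each gene, as a black square with its SE for all 4 libraries and as coloured points with 1 library left out (orange, a Jagged1 library; blue, a vector library). Ankrd1, Amotl2, Ajuba, Crim1 and Rbms3 stay on 1 side of 0 in all 4 settings, and Cyr61, Ctgf, Lats2, Ptpn14 and Tead1 cross it.

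To compare levels between genes, CPM was divided by the length of the gene's merged exons in GENCODE M21 (GRCm38). The order of the 10 genes was the same in both lines. Ankrd1 was first, with 130 ± 18.3 CPM per kb in Jagged1 cells and 249 ± 13.6 CPM per kb in vector cells (SD, n = 2 each). Cyr61 followed with 95.8 ± 48.9 CPM per kb in Jagged1 cells and 111 ± 10.6 CPM per kb in vector cells. The third was Ctgf with 55.3 ± 17.4 CPM per kb in Jagged1 cells and 66.4 ± 25.6 CPM per kb in vector cells. In Jagged1 cells Ankrd1 and Cyr61 overlapped, as did Cyr61 and Ctgf, whereas in vector cells both pairs were apart. Ajuba had 47.8 ± 5.68 CPM per kb in Jagged1 cells and 65.6 ± 0.265 CPM per kb in vector cells, within the range of Ctgf in both lines. From there the order ran through Amotl2, Crim1, Tead1, Ptpn14 and Lats2, with no overlap between neighbours in either line, to Lats2 at 3.79 ± 0.411 CPM per kb in Jagged1 cells and 3.98 ± 0.0297 CPM per kb in vector cells. Rbms3 came last at 0.498 ± 0.139 CPM per kb in Jagged1 cells and 0.0369 ± 0.0252 CPM per kb in vector cells.

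None of the factors that drive these targets passed the adjusted threshold. Yap1, the gene of YAP, had 261 and 251 CPM in Jagged1 cells, against 252 and 224 CPM in vector cells (log2 fold change 0.10 ± 0.15). Wwtr1, the gene of TAZ, had 119 and 142 CPM in Jagged1 cells, against 111 and 125 CPM in vector cells (0.14 ± 0.17). Both overlapped between the lines. Of the other TEAD genes, Tead2 had 144 and 152 CPM in Jagged1 cells, against 118 and 119 CPM in vector cells (0.32 ± 0.14), Tead3 was at 0.16 ± 0.19 and Tead4 at -0.40 ± 0.37. Among the Vestigial-like cofactors that bind TEADs, Vgll1 was at 1.25 ± 0.59 from at most 17 counts in a library, and Vgll3 at -0.49 ± 0.33. Of the 9 tested factors, Tead1 and Vgll1 included, 0 passed the adjusted threshold in edgeR and 0 had an unadjusted p under 0.05. DESeq2 also called 0. Tead2 had both Jagged1 libraries higher (13.9% of all tested genes did), as did Vgll1, which passed the low-count filter only through Jagged1 cells. With 1 library left out, Yap1 ranged from 0.016 to 0.21, Wwtr1 from 0.015 to 0.27, Tead3 from 0.032 to 0.32 and Vgll1 from 0.84 to 1.59.

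The Hippo cascade and its upstream regulators gave 24 tested genes, 4 of them among the 10 genes. Of these 24, 0 passed the adjusted threshold in edgeR and 0 in DESeq2. An unadjusted p under 0.05 was found for 3, where 3.96% of all tested genes had one. These 3 were Amotl2 and Ajuba, both already counted among the 10 genes, and Wtip. Wtip, a LIM protein of the Ajuba family, had 28.1 and 21.2 CPM in Jagged1 cells, against 17.4 and 11.2 CPM in vector cells (0.78 ± 0.28), the opposite direction from Ajuba. The kinase gene Taok1 was at 0.44 ± 0.24, the kinase cofactor gene Mob1b at 0.44 ± 0.33 and Taok3 at -0.25 ± 0.31. Without vector library 1 Taok1 was at 0.18, Mob1b at 0.061 and Wtip at 1.16, and without vector library 2 they were at 0.77, 0.97 and 0.50 in that order. The median was -0.04. Both Jagged1 libraries were higher in 3 genes (13.9% of all tested genes) and lower in 5 (15.1% of all tested genes), Amotl2 and Ajuba among the 5.

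Further genes of a YAP signature known from human cancers were split in direction. Of the 14 listed, 12 were tested, 5 with positive and 7 with negative log2 fold changes (median -0.09). None passed the adjusted threshold in edgeR or DESeq2. An unadjusted p under 0.05 was found for 1, Dock5, where 3.96% of all tested genes had one. Dock5, a guanine nucleotide exchange factor for Rac, had 135 and 122 CPM in Jagged1 cells, against 207 and 160 CPM in vector cells (-0.51 ± 0.19). The stress response gene Gadd45a was at -0.87 ± 0.55 and Nt5e, the surface enzyme CD73, at -0.68 ± 0.44, both with overlapping lines. Gadd45a was at -0.28 without Jagged1 library 1, -1.82 without Jagged1 library 2 and -0.46 without vector library 2, and Nt5e at -0.24, -1.26 and -0.20 in that order; without vector library 1 Nt5e was at -1.02 and Dock5 at -0.30. At the other end stood Foxf2, which passed the low-count filter only through Jagged1 cells, at 1.204 ± 0.51, Igfbp3 at 0.80 ± 0.67 and Tgfb2 at 0.49 ± 0.33. Igfbp3, which binds insulin-like growth factors, rested on 1 library: it was at 27.4 CPM in Jagged1 library 2 and between 6.34 and 11.3 CPM in the other 3. Jagged1 library 2 was also the one with 69.9 CPM of summed fibroblast markers, whose part in the Igfbp3 value was not tested. Without Jagged1 library 1 its log2 fold change was 1.51 (edgeR adjusted p = 0.00525, with a range of 0.00525 to 1.00 over 9 alternatives), and without Jagged1 library 2 it was -0.60. The call rests on the 1 Jagged1 library with the high value, assumed to vary like the vector pair.

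Beside Cyr61 and Ctgf the CCN family held 3 more tested genes, all low. Wisp2, now Ccn5, was read 270 and 282 times in Jagged1 cells, against 18 and 70 times in vector cells, with a log2 fold change of 2.29 ± 0.71 that was 1.57 without vector library 1 and 3.79 without vector library 2. Wisp1, now Ccn4, was read 62 and 43 times in Jagged1 cells, against 22 and 15 times in vector cells (1.18 ± 0.39). Both lay above vector in both Jagged1 libraries (13.9% of all tested genes did), whereas Cyr61 and Ctgf overlapped, and Nov was at 0.11 ± 0.61. Of the 5 tested, 0 passed the adjusted threshold in edgeR and 0 in DESeq2. The 2 with an unadjusted p under 0.05 were Wisp1 and Wisp2, where 3.96% of all tested genes had one. This list, too, was chosen with earlier results of these data known. Without the low-count filter Wisp2 passed (adjusted p = 8.57e-07, range 8.57e-07 to 1.00).

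Serum response factor and its MRTF cofactors share Ankrd1 and Cyr61 as targets with YAP in several cell types. Other genes driven by these factors had values on both sides of 0. Of these genes, Tagln, Cnn1, Acta2 and Myl9 had too few counts to be tested. Of 18 listed, 14 were tested, 6 with positive and 8 with negative values (median -0.03), 0 passed in edgeR or DESeq2 and 0 had an unadjusted p under 0.05. The lowest were Fhl2 (-0.38 ± 0.20), Tagln2 (-0.29 ± 0.16) and Actn1 (-0.24 ± 0.20), which ranged from -0.56 to -0.16, -0.41 to -0.17 and -0.46 to -0.058 with 1 library left out, and the highest Tpm1 (0.22 ± 0.22), Cnn2 (0.06 ± 0.15) and Tpm4 (0.04 ± 0.18).

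**Figure D4:**
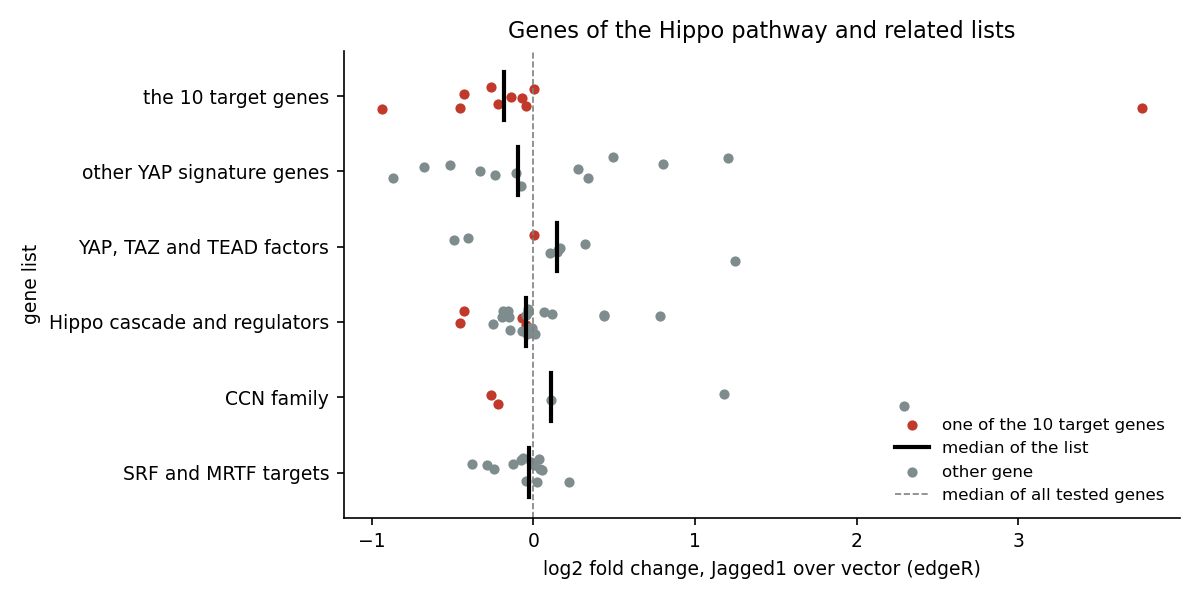
Log2 fold change of Jagged1 over vector (edgeR) for each tested gene of 6 lists, 1 point per gene, with red for the 10 target genes, grey for other genes, a black bar at the list's median and a dashed line at the median of all tested genes. The medians lie between -0.18 and 0.14, and Rbms3 and Wisp2 stand to the right of all other points.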

How the data were processed

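Raw read counts per gene symbol, 1 column for each of 4 libraries, were used as deposited; STAR 2.6.0c, featureCounts 1.6.2 and mm10 (GRCm38) are named in the submitters' processing notes. No annotation release or strand setting is given in the sources used here. Libraries were grouped by their titles. Genes were filtered with filterByExpr (minimum count 10), scaled with TMM factors and tested with edgeR 4.0.16 (quasi-likelihood F test, robust) in R 4.3.3, Jagged1 against vector, with Benjamini-Hochberg adjustment over all 13299 tested genes and a threshold of 0.05. SE was computed as |log2 fold change| over √F. Alternatives were DESeq2 1.42.0, its size factors in edgeR, limma-voom (limma 3.58.1), no filter, a replicate block and leaving out each library. No permutation test was run, since 2 libraries a group allow no two-sided exact p below 0.333. A floor of 3 counts was between 0.145 and 0.244 CPM, covering counting error only. Replicates of a line differed by more than sampling noise (chi-square per degree of freedom 33.8 for Jagged1, 21.8 for vector), so each library counts once. The fit was tested on simulated data. The 10 genes and the lists were chosen with earlier results of these data known; from each list the 3 highest and 3 lowest tested genes are named, with the TEAD genes, Yap1, Wwtr1 and the CCN family in full.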

Additional observations from a re-analysis of the deposited data

How the results depend on the processing

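Over 9 alternatives the direction of Ankrd1, Amotl2, Ajuba, Crim1 and Rbms3 held in each. The number of the 10 genes called was 0 in the reported fit, 2 with DESeq2, 2 without the low-count filter, and between 0 and 1 with 1 library left out; the call without Jagged1 library 1 was Rbms3. Over all genes the count of 1 became 47 with DESeq2, 169 without the filter, and between 0 and 193 with 1 library left out, with 0 without vector library 1 or vector library 2, 49 without Jagged1 library 2 and 193 without Jagged1 library 1. The cause was not tested. The replicate block called 17 genes (0.128%), 0 of them among the 10. The lowest edgeR adjusted p values among the 10 in that fit were 0.0545 (Rbms3) and 0.0682 (Ankrd1), both above the threshold. The labels do not say that same-numbered libraries were handled together, although their deviations correlated across genes (r = 0.425; genes are not independent replicates). With 1 library left out, the number called ranged from 0 to 1 among the other YAP signature genes (Igfbp3), and without the filter it was 1 in the CCN family (Wisp2). Directions that turned did so with 1 library left out. Without Jagged1 library 2 the turned values were those of Cyr61, Ctgf, Lats2, Tead1, Tgfb2, Igfbp3 and Nov; without vector library 2 those of Ctgf, Ptpn14, Vgll3, Nov and Tpm4; without Jagged1 library 1 those of Ptpn14, Taok3, Tpm4 and Tpm1; and without vector library 1 those of Tead1, Tead4 and Cnn2. Log2 fold changes with 1 library left out ranged from -0.87 to 0.23 for Cyr61, -0.62 to 0.19 for Ctgf, -0.19 to 0.038 for Lats2, -0.12 to 0.043 for Ptpn14, -0.11 to 0.15 for Tead1, -0.80 to 0.15 for Tead4, -0.037 to 0.89 for Tgfb2, -0.60 to 1.51 for Igfbp3, -0.88 to 0.071 for Vgll3, -0.74 to 0.13 for Taok3, -0.34 to 0.49 for Nov, -0.13 to 0.19 for Tpm4, -0.019 to 0.15 for Cnn2 and -0.066 to 0.46 for Tpm1. Tead1 also turned without the filter, to -0.00092. Jag1 was at 4.80 to 5.06 and was not called without vector library 1 or 2 (adjusted p = 0.24 and 0.153, edgeR). At 3 counts Rbms3 is at the limit that depth allows in vector library 1.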

Other observations

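The 5 genes whose centred log2 CPM lay nearest to the mean profile of the 10 genes over the 4 libraries, among genes of at least 5 CPM on average, were Rhno1, Kpna3, Gxylt1, Ints6 and Smg1. The mean profile itself was nearly flat (0.12 and -0.04 in Jagged1 libraries 1 and 2, -0.16 and 0.08 in vector libraries 1 and 2). In it the high Rbms3 values were set against the low values of Ankrd1, Amotl2 and Ajuba. Rbms3, which Jagged1 cells alone carried past the low-count filter, lay furthest from its own mean in every library and weighed most in the profile. A profile without Rbms3 was not computed, so the nearest genes cannot be read as those of the remaining target genes. Distances to the mean profile of all 10 genes ran from 0.0813 for Tead1 to 1.73 for Rbms3 among them, in root-mean-square log2 units, and carry the same limit.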
